A study of Mus musculus with 2 samples.

Results

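The cells described here are the Ccr2 Vcan monocytes of the inflamed mouse vitreous, 48 of 5655 kept cells in one library and 680 of 4826 in the other, or 728 of 10481 in all. They were chosen by transcript counts. A cell had to carry at least 10 counts per 10000 and at least 5 UMIs (unique molecular identifiers, each one captured transcript) of Csf1r, C1qa, C1qb, C1qc, Ms4a6c and Ccr2 summed. Mrc1 and Folr2 together had to lie under 5 per 10000, and Ccr2, Vcan and Ly6c2 together at 5 per 10000 or more with at least 4 UMIs. Levels of these 10 genes are therefore given as description and support nothing.

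Both libraries came from C57BL/6 mice that received zymosan, a particle of yeast cell wall, inside the eye, and one of 2 antisera. One library is labelled NRS treated and the other aCXCR2 treated, CXCR2 being the main receptor by which neutrophils follow CXC chemokines. Cells were taken from vitreous fluid and from a saline rinse of the retina, then enriched with Ly6G magnetic beads before droplet sequencing of transcript 3′ ends. The labels give no age, sex, time after injection or number of pooled animals. With 1 library per group, every difference below is between 2 libraries and has no replicate check, and intervals cover counting error only.

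Ly6C-high classical monocytes leave the bone marrow through CCR2, the receptor for the chemokines CCL2, CCL7 and CCL12, and enter inflamed tissue. There they can become macrophages that present antigen on MHC class II, clear dead cells and store lipid, or make inflammatory cytokines. Interferons act on them through transcription factors that bind short promoter elements called ISRE and GAS.

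The promoters below are printed because they belong to interferon-inducible genes that differed in opposite directions between the libraries. Each is the 250 bases before the RefSeq start of the gene on build GRCm38.p6, read 5′ to 3′ on the gene's strand. Capitals mark matches to the ISRE letters on either strand, GAAA followed by any 2 bases and GAAA again. Cxcl10 (chr5:92348890-92349139, minus strand), Gbp2 (chr3:142620413-142620662, plus strand) and Gbp5 (chr3:142496684-142496933, plus strand) were higher in aCXCR2 monocytes, and Ifit3 (chr19:34583279-34583528, plus strand) was lower.
Cxcl10: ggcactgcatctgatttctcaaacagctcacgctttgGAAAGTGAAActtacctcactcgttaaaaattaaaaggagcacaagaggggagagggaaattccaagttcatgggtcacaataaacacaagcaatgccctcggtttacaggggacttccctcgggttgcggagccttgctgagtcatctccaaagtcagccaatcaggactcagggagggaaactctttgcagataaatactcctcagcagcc
Gbp2: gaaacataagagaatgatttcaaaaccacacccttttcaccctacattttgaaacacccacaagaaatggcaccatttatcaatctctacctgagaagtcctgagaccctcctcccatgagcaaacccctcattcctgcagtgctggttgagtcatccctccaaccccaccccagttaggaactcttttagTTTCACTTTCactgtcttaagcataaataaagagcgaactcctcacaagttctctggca
Gbp5: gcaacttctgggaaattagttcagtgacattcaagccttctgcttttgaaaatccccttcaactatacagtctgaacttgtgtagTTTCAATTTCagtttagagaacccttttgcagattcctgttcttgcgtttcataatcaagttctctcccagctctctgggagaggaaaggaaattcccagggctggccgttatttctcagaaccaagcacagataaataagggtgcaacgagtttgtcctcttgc
Ifit3: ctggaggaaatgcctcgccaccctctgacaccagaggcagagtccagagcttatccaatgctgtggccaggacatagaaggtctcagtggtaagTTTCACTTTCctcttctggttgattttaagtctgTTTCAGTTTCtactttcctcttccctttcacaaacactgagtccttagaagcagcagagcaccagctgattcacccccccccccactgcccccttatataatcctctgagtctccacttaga
In GENCODE M21, Gbp5 spans chr3:142493978-142522344 and Gbp2 chr3:142620602-142638008, so the Gbp5 window and the end of the Gbp2 window lie inside the annotated genes. The match lay 213 to 204 bases before the start in Cxcl10, 59 to 50 in Gbp2 and 165 to 156 in Gbp5. Ifit3 had 2 matches, at 156 to 147 and at 122 to 113 bases. Gbp5 also held the GAS letters TTCNNNGAA at 245 to 237 and at 52 to 44 bases before its start.

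The gate did not collect cells of one make-up. Ccr2 had a UMI in 36 of 48 NRS members and 564 of 680 aCXCR2 members, Vcan in 19 and 505, and Ly6c2 in 30 and 595. All 3 were present in 9 of 48 (18.8%) and 379 of 680 (55.7%), while Ccr2 alone carried 11 and 26 members and Ly6c2 alone 9 and 43. The summed level of the 3 genes had a median of 10.8 per 10000 in NRS and 13.2 in aCXCR2 members. The members just inside the threshold stood at 5.37 (NRS) and 5.02 (aCXCR2) per 10000, and the highest cells just outside it with enough UMIs at 4.96 and 4.98. In all, 20 of 48 and 234 of 680 members lay under 10 per 10000.

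Summed over members, Ccr2 (chr9:124101950-124113557, plus strand) stood at 730 CPM (counts scaled to a fixed total of the same cells' UMIs) in NRS members, against 585 in aCXCR2. Ly6c2 (chr15:75108158-75111970, minus strand), the Ly6C antigen, stood at 791 and 837 CPM. Vcan (chr13:89655312-89742509, minus strand), the proteoglycan versican, stood at 67.2 and 206 CPM. These positions are from GENCODE M21 on GRCm38. The median member carried 6.88 and 5.36 Ccr2 counts per 10000 in NRS and aCXCR2, and 0 and 1.09 of Vcan.

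Ms4a4c (chr19:11404770-11427246, plus strand), a membrane protein gene of inflammatory monocytes that the gate did not use, had 275 CPM in NRS members, and 112 in aCXCR2 members. It had a UMI in 20 of 48 and 355 of 680 of them. The Mrc1 Folr2 cells had 37.4 and 11.2 CPM, the other gated phagocytes 5.27 and 19.3, and neutrophil-gated cells 1.08 and 0.652. Ms4a4c was thus highest in the members in both libraries.

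The label monocyte was set against a list of classical monocyte genes. Of 17 measured ones outside the gate, 6 were 2-fold higher in members than in Mrc1 Folr2 cells in both libraries and 5 higher than in other gated phagocytes, beside 1.92 and 0.727% of all genes at 10 CPM, and none was lower by as much. Ms4a4c was 1 of the 6, at 7.37- and 10.0-fold the level of Mrc1 Folr2 cells in NRS and aCXCR2. Fn1, fibronectin, stood at 1720 and 1330 CPM in members against 84.2 and 707 in Mrc1 Folr2 cells, short of 2-fold in aCXCR2. Not all genes of the list followed the label: Lyz2, lysozyme, stood at 36205 CPM in NRS members against 37789 in Mrc1 Folr2 cells and 38758 in other phagocytes, and F13a1, a clotting factor, at 412 and 485 CPM against 802 and 806 in Mrc1 Folr2 cells. Hp, haptoglobin, stood at 1332 and 2606 CPM. Between the libraries 1 of the 20 listed genes was at least 2-fold higher in aCXCR2, the gate gene Vcan, and 3 lower (Ms4a4c and Ifi27l2a among them), beside 2.75% higher and 4.75% lower of 7667 genes at 10 CPM. The list's median log2 ratio was 0.08.

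Shares of cells with a UMI were compared after thinning each cell to 2000 UMIs, which kept every member and left out 287 NRS and 72 aCXCR2 rods. Ccr2 then had a UMI in 68.8% of the NRS members, against 57.1% in aCXCR2; rods had 0.277 and 1.53%. Vcan was seen in 14.6 and 29.1% of members and 0 and 0.510% of rods, and Ly6c2 in 43.8 and 55.3%. Ccr2, Vcan and Ly6c2 were gate genes, so their gap between members and rods follows from the gate and supports nothing. Ms4a4c was seen in 25 and 16.0% of members, with 41.7 and 52.2% before thinning, and in no thinned rod. The median rod had 3735 UMIs in NRS and 4729.5 in aCXCR2, far fewer than the members.

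**Figure D1:**
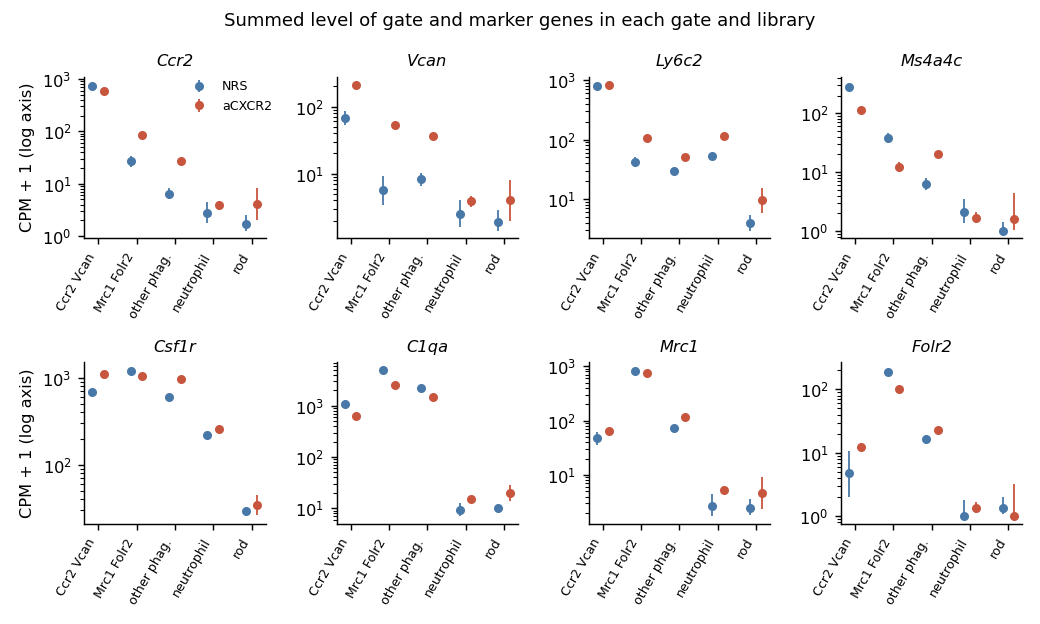
Summed level of 8 genes in the Ccr2 Vcan gate, the Mrc1 Folr2 gate, the other gated phagocytes, the neutrophil gate and the rod gate, as CPM plus 1 on a log axis, in the NRS (blue) and aCXCR2 (red) libraries; bars are exact 95% Poisson intervals. Ccr2, Vcan, Ly6c2 and Ms4a4c are highest in the Ccr2 Vcan gate in both libraries, in part because 3 of them define it, while Mrc1 and Folr2 are highest in the gate named for them.

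The cells were labelled Ly6G-positive, yet Ly6g, the neutrophil antigen used for the beads, had no UMI in the 48 NRS members, which allows up to 2.84 CPM. It had 2.70 CPM in aCXCR2 members, in 16 of 680 cells, against 22.3 and 125 CPM in neutrophil-gated cells. Cxcr2 stood at 12.3 and 16.9 CPM in members against 709 and 779 in neutrophils. S100a8, an abundant neutrophil calcium-binding protein, stood at 682 and 1851 CPM against 32673 and 80258. Other genes of the list were less far apart: Acod1 stood at 172 and 453 CPM against 935 and 1035, and Mmp9 at 444 and 190 against 1375 and 1302. The summed neutrophil marker list was 2034 and 4420 CPM, with 11 and 13 of 13 genes detected. At least 10 UMIs of the list were found in 29 of 48 NRS and 654 of 680 aCXCR2 members.

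Other cell types left smaller traces. At least 10 UMIs of T and NK genes were found in 4 of 48 NRS and 4 of 680 aCXCR2 members, and at least 10 of erythroid genes in 2 and 0. In NRS, 2 members had no UMI of the phagocyte gate other than Ccr2. Of 12 dendritic cell genes, 6 were detected in NRS and 11 in aCXCR2 members, summing to 46.4 and 36.3 CPM. Batf3 had a UMI in 7 and 173 members, Clec10a in 7 and 143 and Itgax in 7 and 45, while Flt3, Zbtb46, Cd209a or Ccr7 gave one in 1 and 11. The microglial genes Sall1, Siglech and Slc2a5, the Müller glia genes Slc1a3 and Aqp4, and all 7 mast cell and basophil genes were at 0 in both libraries. Rod markers summed to 445 CPM in NRS and 88.2 in aCXCR2 members, lens markers to 5.68 and 4.94. The 2 libraries shared 53 kept barcodes, but no barcode was a member in both.

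Monocytes made up 0.849% of kept NRS cells (exact 95% interval 0.626 to 1.12%) and 14.1% of kept aCXCR2 cells (13.1 to 15.1%), 16.6 times the NRS share. Among gated phagocytes they were 48 of 529 (9.07%, 6.77 to 11.9%) and 680 of 1708 (39.8%, 37.5 to 42.2%). Mrc1 Folr2 cells went from 1.93 to 4.23% of kept cells and other gated phagocytes from 6.58 to 17.1%. Neutrophil-gated cells went from 13.8 to 46.7%, and rod-gated cells from 17.9 to 5.55%. The monocyte ratio ranged from 15.0 to 25.6 over 9 changes to the cell filter or gate. Shares depend on the bead enrichment and on how many rods and unclassified barcodes each library holds, and their part was not tested.

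**Figure D2:**
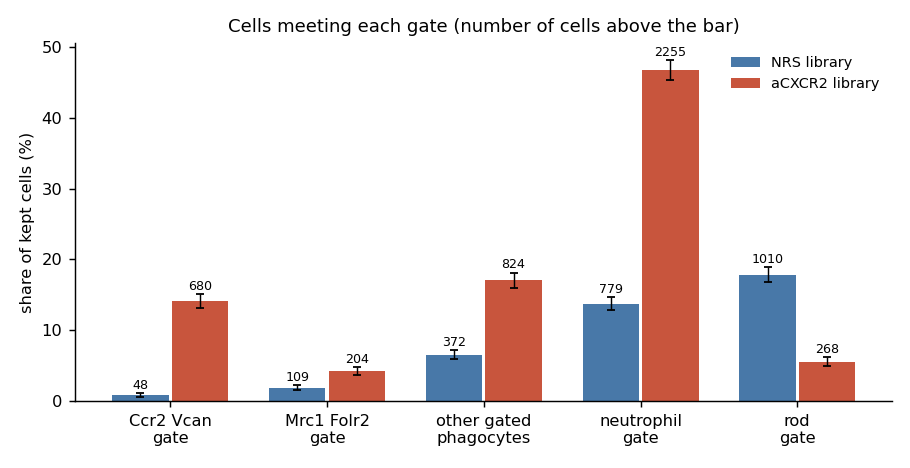
Share of kept cells (%) that met each gate in the NRS (blue) and aCXCR2 (red) libraries, with the number of cells above each bar and exact 95% binomial intervals. The Ccr2 Vcan share is 0.849% in NRS and 14.1% in aCXCR2, and the rod gate is the only one shown with the larger share in NRS.

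Monocytes were deeply sampled in both libraries. The median member had 21050 UMIs in NRS and 27539.5 in aCXCR2, against 4867 and 7864 in neutrophil-gated cells. Mitochondrial transcripts had medians of 3.86 and 4.03%. The 48 NRS members summed to 1056681 UMIs and the 680 aCXCR2 members to 19215784, so the NRS side sets the precision of every ratio. A single cell could carry much of a gene there, and its part is given where it matters.

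Of 2902 genes with at least 50 CPM in either library, 60 (2.07%) were higher in aCXCR2 monocytes by 2-fold or more, and 104 (3.58%) were lower by as much. The higher genes were 36.6% of those past 2-fold, 46.9% after TMM scaling (76 higher, 86 lower), and 71.7% when each gene's highest cell of each library was left out (104 higher, 41 lower). Leaving out 1 cell takes a larger part of 48 cells than of 680. No share of direction is therefore read from these counts.

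Interferon-inducible genes did not differ in 1 direction. Of 22 listed interferon-stimulated genes, 4 were 2-fold higher or more (Cxcl10, Gbp2 and Gbp5 among them), while 12 were lower by as much. At the 10 CPM minimum used for lists, 2.75% of 7667 genes were higher and 4.75% lower.

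Cxcl10 encodes a chemokine for activated T cells. It stood at 18.9 CPM in NRS, in 4 of 48 cells, and at 197 CPM in aCXCR2, in 137 of 680 cells, a log2 ratio of 3.38 (95% counting interval 2.75 to 4.09). One NRS cell held 70.0% of its NRS UMIs, and without each library's highest cell the ratio was 4.91. Gbp5, a GTPase of cell-autonomous defence, stood at 10.4 and 78.3 CPM, in 8 and 330 cells (log2 ratio 2.91, 2.07 to 3.92). Gbp2, of the same family, stood at 61.5 and 255 CPM, in 12 and 497 cells (2.05, 1.70 to 2.43).

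Ifit3, Ifit2 and Irf7 were among the 12 lower genes. Ifit3 and Ifit2 belong to the same family of interferon-inducible genes. Ifit3 stood at 94.6 CPM in NRS, in 7 cells, and 8.95 in aCXCR2, in 41 cells (log2 ratio -3.40, -3.77 to -3.03). Ifit2 stood at 101 and 6.87 CPM, with 68.2% of the NRS UMIs in 1 cell. Irf7, the transcription factor that amplifies type I interferon, stood at 296 and 68.1 CPM, with 48.9% in 1 NRS cell. At 2000 UMIs per cell, 8.33% of NRS members had an Ifit3 UMI, and 1.03% in aCXCR2, against 20.6 and 16.8% of rods. Rods had 247 and 270 CPM of Ifit3. The members' shares lay below those of rods in both libraries. Where the rods' Ifit3 transcript came from was not tested, so the shares of Ifit3 are not read further.

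Matches to the ISRE letters were found in the promoters of 11 of the 48 higher genes that had a promoter in the table (22.9%) and 13 of 84 lower ones (15.5%). The share was 4.55% among all 2310 such genes at 50 CPM and 3.46% among all 27025 genes with a promoter. The higher genes with a match included Cxcl10, Gbp2, Gbp5, Gbp7, Igtp, Socs1 and Saa3, and the lower ones Ifit1, Ifit3, Isg15, Rsad2, Oas1a and Oas3. Gbp5, printed above, carries its match and both GAS matches. A match describes letters in the window and was not tested as a site.

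**Figure D3:**
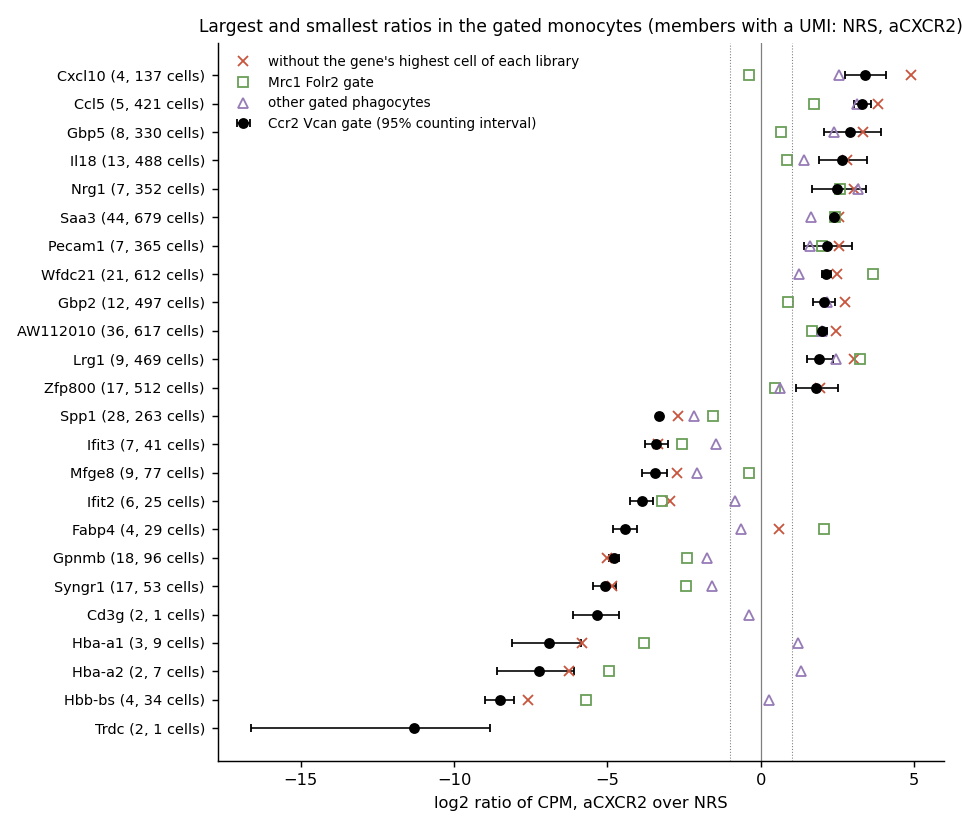
Log2 ratio of CPM, aCXCR2 over NRS, for the 12 largest and 12 smallest ratios by the naming rule, with exact 95% counting intervals (black), the value without each library's highest cell (red crosses), and the ratio in the Mrc1 Folr2 gate (green) and in other gated phagocytes (purple). Labels give the members with a UMI; Trdc and Cd3g rest on 2 NRS cells, and the cross of Fabp4 lies on the other side of 0 from its black point.

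Inflammatory secreted products were higher in aCXCR2 monocytes for some genes and lower for others. Ccl5, the chemokine RANTES (chr11:83525778-83530518, minus strand), went from 105 CPM in 5 of 48 NRS cells to 1042 CPM in 421 of 680 aCXCR2 cells (log2 ratio 3.31, 3.04 to 3.59). At 2000 UMIs per cell, 8.33% of NRS and 38.1% of aCXCR2 members had a Ccl5 UMI, against 0.553 and 3.06% of rods. The share was also larger in aCXCR2 in Mrc1 Folr2 cells (17.0 and 33.0%) and in other phagocytes (5.20 and 25.5%). Ccl4, a macrophage inflammatory chemokine, stood at 21.8 and 99.7 CPM, far under the 1087 and 1777 CPM of neutrophils. Il18, a cytokine released by the inflammasome, stood at 14.2 CPM in 13 cells and 87.8 CPM in 488 cells (2.63, 1.90 to 3.47). It differed less in Mrc1 Folr2 cells (36.6 and 66.1 CPM) and other phagocytes (19.0 and 50.1 CPM), a difference that was not tested.

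Il1b, the central inflammasome substrate, stood at 1401 and 2695 CPM (log2 ratio 0.94, and -0.75 with the gate applied to thinned cells). Its receptor antagonist Il1rn stood at 334 and 193 CPM. Over all genes at 10 CPM, 2.75% were higher and 4.75% lower. Of 11 inflammatory cytokine and mediator genes, 1 was at least 2-fold higher (Il18) and 3 lower (Il1a, Il6 and Ptgs2). One NRS cell held 71.1, 64.7 and 61.9% of their UMIs. As for the other mediators, Nos2, the inducible nitric oxide synthase, stood at 106 and 116 CPM. Arg1, the arginase that competes for its substrate, stood at 4517 and 2890 CPM. It went the other way in Mrc1 Folr2 cells, from 470 to 3857 CPM, a difference that was not tested.

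The monocytes' own chemokines gave a mixed picture. Of the 4 CCR2 ligands, Ccl2 was lower, at 392 and 70.1 CPM, but 90.1% of its NRS UMIs were in 1 cell and the log2 ratio without the highest cells was 0.50. Ccl7 in NRS came from 1 cell alone. Among 12 chemokine receptors none was 2-fold higher and 3 were lower. For these and the CCR2 ligands, the shares over all genes at 10 CPM were 2.75% higher and 4.75% lower. Cx3cr1, a receptor of patrolling monocytes and resident macrophages, stood at 83.3 and 31.1 CPM, Cxcr4, a marrow retention receptor, at 109 and 32.2, and Ackr3 at 16.1 and 4.22.

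Saa3, Wfdc21, Lrg1 and Pecam1 were among the 12 genes with the largest ratios. Saa3, a serum amyloid A protein (chr7:46711998-46715700, minus strand), was at 8156 CPM in the NRS members, against 42356 in aCXCR2 (log2 ratio 2.38, 2.35 to 2.41). The Mrc1 Folr2 cells had 7970 and 42689 CPM, other phagocytes 12264 and 38423, and neutrophils 4485 and 14735. At 2000 UMIs, 60.4 and 95.4% of members had a Saa3 UMI, and so did 20.5 and 67.3% of rods. The share of rods with Saa3 thus differed between the libraries too. Where the rods' Saa3 transcript came from, and its part in the members' ratio, was not tested. Wfdc21 stood at 355 and 1556 CPM against 3366 and 6051 in neutrophils, and Lrg1 at 44.5 and 167 against 496 and 898. Over all genes at 10 CPM, 2.75% were higher and 4.75% lower in aCXCR2 members. Of 9 measured neutrophil markers, 4 were 2-fold higher in aCXCR2 members, S100a8 among them, and 2 lower, Mmp9 (444 and 190 CPM) and Hcar2 (25.6 and 10.6 CPM). Their part was not tested. Pecam1, an adhesion molecule of leukocytes and endothelium, stood at 14.2 and 62.6 CPM. Of the 5 other endothelial markers, none had a UMI in NRS members, and in aCXCR2 Cdh5 had one in 10 cells, Kdr in 6 and Emcn in 1.

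Several lipid-handling genes were lower in aCXCR2 monocytes, 8 of the 14 listed, beside 4.75% of all genes at 10 CPM. Apoe, the lipid carrier (chr7:19696109-19699188, minus strand), stood at 20761 and 6520 CPM (log2 ratio -1.67, -1.69 to -1.65), with per-cell medians of 50.5 and 32.0 per 10000. Gpnmb, a lysosomal glycoprotein of lipid-laden macrophages (chr6:49036546-49070929, plus strand), stood at 756 CPM in 18 of 48 cells and 27.7 CPM in 96 of 680 (-4.77, -4.93 to -4.61). At 2000 UMIs, 25 and 2.50% of members had a Gpnmb UMI, against 5.95 and 1.53% of rods. Spp1, osteopontin, stood at 1960 and 198 CPM (-3.31), and at -2.71 without the highest cells, since 1 NRS cell held 46.0% of its UMIs. The Mrc1 Folr2 cells also had less Gpnmb in aCXCR2 (437 and 81.8 CPM), as did other phagocytes (1517 and 453 CPM).

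Of 14 lipid-handling genes, 8 were at least 2-fold lower and none higher. Over all genes at 10 CPM, 4.75% were lower and 2.75% higher, with a median log2 ratio of -0.0083. The median of the lipid list was -1.20. When the gate was applied after thinning to 2000 UMIs, which left 12 NRS members, this median was 0.095, with Apoe at 0.19, Fabp5 at 2.59 and Lipa at 0.095. Psap, a lysosomal lipid hydrolase activator, stood at 5629 and 2194 CPM, and Lipa, the lysosomal acid lipase, at 359 and 99.9. Cd36, a scavenger receptor, stood at 54.9 and 7.29 CPM, and Lpl at 80.4 and 8.53. Fabp4 stood at 121 and 5.62 CPM, but 97.7% of its NRS UMIs were in 1 cell. The complement genes C1qa, C1qb and C1qc, which were part of the gate, stood at 1106, 1950 and 971 CPM in NRS and 620, 1132 and 513 in aCXCR2.

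The list of macrophage maturation genes had 7 of 20 at least 2-fold lower and 2 higher, with a median of -0.80, or 0.75 with the thinned gate. The higher ones were Folr2 (3.79 and 11.6 CPM), which the gate caps, and Cd163 (0.946 and 13.3 CPM, from 1 NRS UMI). Of 10 growth and neurotrophic factor genes, 6 were lower and none higher. For this list and the maturation list, the shares over all genes at 10 CPM were 4.75% lower and 2.75% higher. Gdf15, a stress-induced cytokine, stood at 36 and 1.09 CPM. Pdgfa stood at 34.1 and 8.95 CPM and Pdgfb at 13.2 and 2.91.

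Among 21 monocyte transcription factors, 3 were lower and 2 higher; here and for the adhesion and matrix lists, the shares over all genes at 10 CPM were 4.75% lower and 2.75% higher. Cebpa, a factor of myeloid differentiation, stood at 153 and 31.2 CPM (log2 ratio -2.30), Bhlhe41 at 43.5 and 1.67, and Bhlhe40 at 71.0 and 22.9. The higher ones were Nfil3, at 52.0 and 152 CPM, and Irf1, an interferon-induced activator, at 62.5 and 168. Spi1, the macrophage master regulator PU.1, stood at 468 and 541 CPM. Of 15 adhesion genes, 2 were higher, Itga4 (57.7 and 130 CPM) and Pecam1, and 2 lower, among them Cd9 (381 and 100 CPM). Of 17 matrix genes, 6 were lower, among them Mmp8, Mmp9, Mmp12, Mmp13 and Timp2. Vcan alone was higher.

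**Figure D4:**
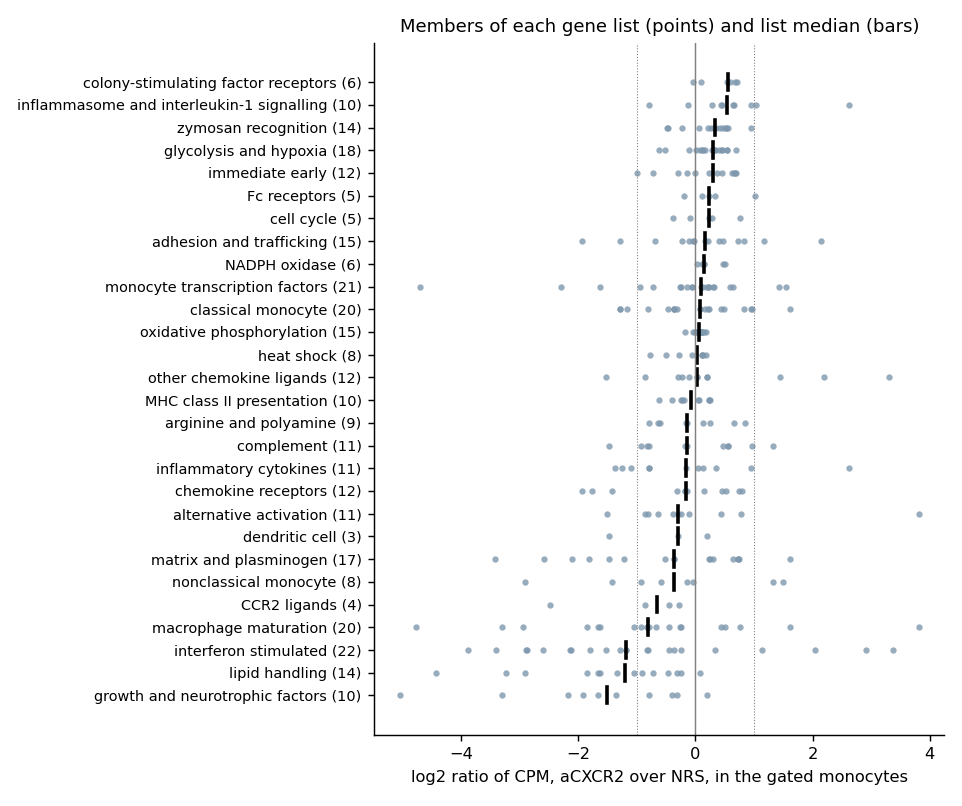
Log2 ratio of CPM, aCXCR2 over NRS, for each measured gene (points) of 28 gene lists in the monocytes, with the list median (bars) and dotted lines at 2-fold; numbers in brackets are the genes measured. Growth factor, lipid handling, interferon and macrophage maturation lists have the lowest medians, from -1.51 to -0.80, and respiratory chain genes lie close to 0.

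The smallest ratios included genes of other cell types. Trdc, a gamma delta T cell receptor gene, stood at 132 CPM in 2 NRS cells and 0.052 in aCXCR2. Syngr1, a vesicle protein and not one of the markers of another cell type used here, stood at 174 CPM in 17 NRS cells and 5.10 in 53 aCXCR2 cells. Cd3g, of the T cell receptor complex, stood at 51.1 and 1.25 CPM. Hbb-bs, a beta globin, stood at 755 CPM in NRS, with 52.5% in 1 cell, and 2.08 in aCXCR2. Removing the 6 NRS and 4 aCXCR2 members with lymphoid or erythroid transcripts gave 56 higher and 81 lower genes. Gpnmb then stood at a log2 ratio of -4.54, Spp1 at -2.58 and Ccl5 at 3.17.

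The monocytes varied widely in MHC class II. The sum of Cd74, the chaperone of class II chains, and the chain genes H2-Aa, H2-Ab1 and H2-Eb1 reached 50 per 10000 in 20 of 48 NRS members (41.7%) and 324 of 680 aCXCR2 members (47.6%). At 100 per 10000 the order turned, with 39.6% of NRS and 34.4% of aCXCR2 members. In NRS the members lay apart, with 21 under 5 per 10000 and 3 between 25 and 100. In aCXCR2, 157 lay under 5 and 167 (24.6%) between 25 and 100. The quartiles were 0.659 and 268 per 10000 in NRS, and 6.81 and 156 in aCXCR2.

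The class II sum was not related to the gate genes across members, with Spearman's rho of 0.075 in 48 NRS cells and -0.018 in 680 aCXCR2 cells, given as a description of cells of 1 library each. Median depths were alike on both sides of 50 per 10000, at 20781.5 and 21094.5 UMIs in NRS and 28274.5 and 26712.5 in aCXCR2. Monocytes were 46.5% of the 43 NRS and 56.6% of the 572 aCXCR2 gated phagocytes that reached 50 per 10000. Of Mrc1 Folr2 cells 7.34 and 28.9% reached it, and of other phagocytes 4.03 and 22.9%.

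**Figure D5:**
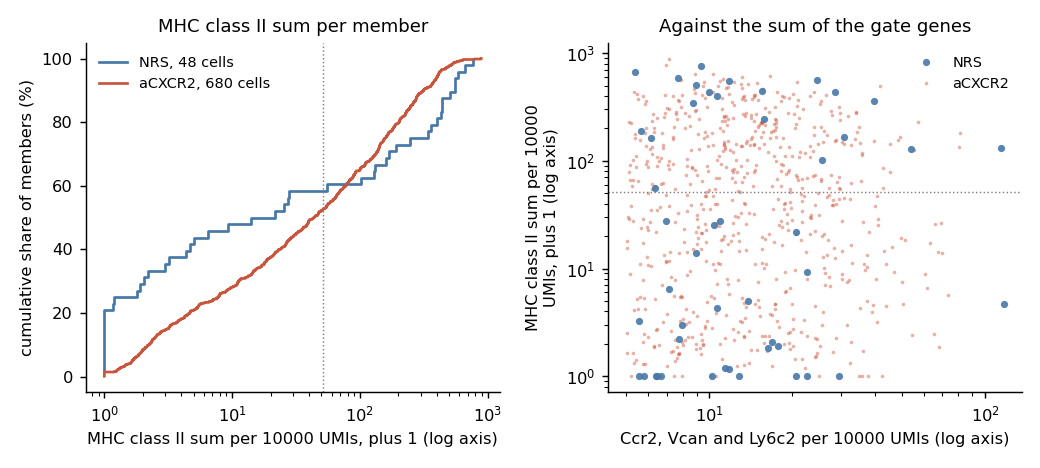
Left, cumulative share of members (%) by the class II sum per 10000 UMIs, plus 1, on a log axis, in 48 NRS (blue) and 680 aCXCR2 (red) cells, with a dotted line at 50 per 10000. Right, the same sum against summed Ccr2, Vcan and Ly6c2; 41.7% of NRS and 47.6% of aCXCR2 members lie at or above the line, at all levels of the gate genes.

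Class II transcripts were abundant in both libraries' members and within 2-fold of each other. Cd74 stood at 6324 and 5537 CPM, H2-Ab1 at 2483 and 2118, H2-Aa at 2323 and 1768, and H2-Eb1 at 2191 and 1416, against 81.7 and 84.2 CPM of Cd74 in neutrophils. None of 10 class II presentation genes differed 2-fold between libraries, beside 2.75% higher and 4.75% lower of all genes at 10 CPM. In Mrc1 Folr2 cells Cd74 stood at 528 and 2532 CPM, and in other phagocytes at 391 and 2433. The members were thus the gated phagocytes with the most class II transcript in NRS and in aCXCR2.

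Between members at or above 50 per 10000 and those under it, 4 of 3203 genes (0.125%) were higher by 2-fold or more in both libraries and 17 (0.531%) lower, with the 4 summed genes left out. Higher were Ciita, the class II master activator (136 and 0 CPM in NRS, 97.4 and 20.7 in aCXCR2), H2-DMa, H2-DMb1, a peptide loading chain (637 and 32.6, 369 and 61.3), and Cxcl9, with 2 NRS cells. Lower were Spp1 (121 and 2999 CPM in NRS, 73.8 and 318 in aCXCR2) and Gpnmb (15.7 and 1174, 11.2 and 43.5). Cxcl3, a neutrophil chemokine, was also lower (0 and 1328, 100 and 481). Chil3, a chitinase-like protein of Ly6C-high monocytes, stood at 86.5 and 255 CPM in NRS and 59.3 and 160 in aCXCR2.

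The 2 sides of the split differed in how the libraries compared. Among members under 50 per 10000 the log2 ratio of aCXCR2 over NRS was -4.75 for Gpnmb, -3.24 for Spp1, -2.13 for Apoe and -2.22 for Lipa. Among members at or above it the values were -0.50, -0.71, -0.38 and -0.39. Ccl5 had 4.40 and 2.44, Gbp2 3.42 and 1.11, and Cxcl10 6.22 and 1.88. Saa3 had 2.23 and 3.07. These differences between the sides were not tested, and the NRS sides held 28 and 20 cells.

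Against the Mrc1 Folr2 cells of the same libraries, 63 of 3276 genes (1.92%) were higher in monocytes by 2-fold or more in both libraries, and 123 (3.75%) were lower. Plac8, a gene of circulating monocytes, stood at 407 and 726 CPM against 23.2 and 128, 17.5- and 5.69-fold. S100a4, a calcium-binding protein of motile cells, stood at 831 and 877 CPM (4.97- and 6.14-fold). Lsp1, a leukocyte actin-binding protein, stood at 161 and 85.6 CPM against 17.3 and 10.5. Adgre4, an adhesion receptor of monocytes, was 9.39- and 4.46-fold higher. Ccl8 was the most different in the other direction, at 37.9 and 27.7 CPM against 5372 and 1482. Gas6, a bridging ligand for the clearance of dead cells, stood at 23.7 and 3.17 CPM against 561 and 121. The scavenger receptor Marco stood at 53.0 and 21.3 against 718 and 245, and the growth factor Igf1 at 32.2 and 10.2 against 440 and 112.

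Against the other gated phagocytes, 28 of 3077 genes (0.91%) were higher by the same measure, and 58 (1.88%) lower. Plac8 was 23.5- and 3.93-fold higher, S100a4 7.52- and 4.28-fold, and Ciita 13.6- and 2.85-fold. Ly6i, a Ly6C-related gene, stood at 108 and 211 CPM against 17.0 and 71.4, and may share reads with its paralogues. Slc40a1, the iron exporter ferroportin, stood at 8.52 and 2.55 CPM against 121 and 88.2. Igf1, Gas6, Marco and Ccl8 were lower here as well. Of 10 class II genes, 7 were higher in both libraries, and 6 against the Mrc1 Folr2 cells, beside 0.727 and 1.92% of all genes at 10 CPM. Since the gate was drawn on transcripts of these cells, the contrasts describe the gated cells and test nothing.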

How the data were processed

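Each library's matrix holds UMI counts per gene and barcode, deposited by the authors as made with Cell Ranger (software version 3.0.0 per the file headers). Seurat and GRCh38 are named too, per the submitters' processing notes. The gene IDs are mouse, no source used here gives the build behind them, and 30934 of 31053 IDs were in GENCODE M21. NRS held 7314 barcodes and 61386486 UMIs, aCXCR2 5551 and 85748842. The cell filter asked for 500 UMIs, 200 genes and no more than 10% mitochondrial UMIs, which kept 5655 and 4826 cells (median 4759 and 10383.5 UMIs). The members and the gene lists were chosen with earlier results of these data known.

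Counts were summed over members per library and scaled to CPM in Python 3.11.15 with scipy 1.17.1. Log2 ratios have exact conditional 95% intervals, shares exact Clopper-Pearson ones, which cover counting error only; with 1 library per group no test was run. A gene was counted as differing at 2-fold and at least 50 CPM in either library (10 CPM for the 28 lists); all 60 higher and 104 lower genes had intervals clear of 0. On simulated counts of 2808 genes this rule called 67 of 67 genes changed 3-fold, 62 of 62 changed 6-fold and 0 of 71 changed 1.5-fold. Intervals held the true ratio for 94.7% of 2608 unchanged genes. The simulated counts had no variation between cells, so they do not show how the rule does where 1 cell holds most UMIs. Named were the 12 largest and 12 smallest ratios, without unnamed models, mitochondrial genes and any gene whose CPM outside the phagocyte gate was over 5 times its own; the gate genes and Ms4a4c; up to 4 list members by level and 4 by ratio; and the 12 largest and smallest folds against each other class. Genes that complete a short count (Irf1, Nceh1, Mmp9, Timp2, Igf1), and those of the class II split and the promoter lists, were named after their values were seen.

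Scrublet (scanpy 1.11.5) called 0 and 4 doublets, so it has not worked, and the 256 and 186 highest scores were removed in an alternative. Other alternatives changed the cell filter, gate, scaling (TMM, edgeR 4.0.16), CPM minimum, class II side and cell weights. Removing members with lymphoid or erythroid transcripts, requiring 2 of the 3 monocyte genes and leaving out each gene's highest cell were chosen after seeing the data. Some genes of the lists are counted but not reported here by name.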

Additional observations from a re-analysis of the deposited data

Results flagged for a closer look

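Several genes differed between the libraries in opposite directions in monocytes and in another gated phagocyte class, as log2 ratios of aCXCR2 over NRS whose counting intervals lay on either side of 0. None of these differences was tested, since each rests on 1 library per group.

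H2-Eb1, a class II beta chain, had -0.63 in monocytes, 2.38 in Mrc1 Folr2 cells and 3.03 in other phagocytes. Cxcl3, a neutrophil chemokine, had -1.53, 4.22 and 0.79. Arg1 had -0.64 in monocytes and 3.04 in Mrc1 Folr2 cells. Fabp5, a fatty acid carrier, had -1.06 and 1.03 in the same classes, and Il1rn -0.79 and 0.91. Fabp4 had -4.43 and 2.05, with 97.7% of its NRS monocyte UMIs in 1 cell. Against other phagocytes, Il1a had -1.25 and 0.94, with 71.1% of its NRS UMIs in 1 cell, and Hba-a1, an alpha globin, -6.90 and 1.21, with 3 NRS cells.

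Among barcodes left out by the cell filter, 3 in NRS and 20 in aCXCR2 met the monocyte gate, all of them left out for their mitochondrial share.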

How the results depend on the processing

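No paired analysis was possible because each group has 1 library. Among recomputed log2 ratios of named genes, 1887 stayed within the counting interval, 851 moved and 29 changed sign from a main value past 2-fold (Il1b, under 2-fold, is counted as moved); the causes were not tested.

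The monocyte share (0.849% of NRS, 14.1% of aCXCR2 cells) became 0.477 and 9.20% with a gate at 10 per 10000 and 8 UMIs, 0.250 and 4.13% with a gate after thinning to 2000 UMIs, and 0.497 and 12.7% with at least 2 of the 3 monocyte genes. With a class II threshold of 100 per 10000, 39.6% of NRS and 34.4% of aCXCR2 members passed, which turns the order of the libraries from 41.7 and 47.6% at 50. Genes higher and lower in aCXCR2 (60 and 104) became 139 and 350 with the thinned gate, 126 and 233 at 20 CPM, 32 and 54 at 100 CPM, and 104 and 41 without each gene's highest cell. There were 148 higher genes among members low in class II, and 67 lower genes with at least 2 monocyte genes. Of the 60 higher genes, 30 were called with the thinned gate and 59 without the highest cells; of the 104 lower genes, 46 and 41. Genes higher than in Mrc1 Folr2 cells (63) became 119 with the thinned gate and 116 at 20 CPM, and genes higher than in other phagocytes (28) became 17 with the stricter gate and 44 at 20 CPM.

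Signs reversed as follows, in log2. With the stricter gate Hbb-bs had 0.088 and Ackr3 1.18, and with no Mrc1 and Folr2 limit Folr2 had -0.39. With the thinned gate (12 NRS members) Pglyrp1 had -0.63, Apoe 0.19, Fabp5 2.59, Lipa 0.095 and Casp4 -0.37, and the medians of the macrophage maturation, CCR2 ligand and lipid handling lists were 0.75, 0.79 and 0.095. Without the highest doublet scores Pglyrp1 had -0.33. In members low in class II Itgax had 0.78. In members high in it Fabp4 had 0.44, Cd36 0.28, Fabp5 1.54, Il6 0.93, Il1a 1.97, Ptgs2 0.28, Mmp8 1.39, Mmp12 3.86 and the CCR2 ligand median 2.05. Without lymphoid or erythroid transcripts Fabp4 had 1.44, Ccl2 0.75 and the CCR2 ligand median 1.46. With at least 2 monocyte genes Hbb-bs had 0.17, Fabp4 1.59, Mfge8 0.27, Fabp5 0.46 and Ccl2 0.071. Without the highest cells Fabp4 had 0.61, Ccl2 0.50, Il1a 0.40, Ptgs2 0.11 and the CCR2 ligand median 2.50.

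Depth limits the NRS side: 48 cells allow a gene with no UMI up to 2.84 CPM there and 0.156 CPM in aCXCR2, and 1 cell can hold most of a gene's UMIs.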

Other observations

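In 10 gene lists no gene differed 2-fold between the libraries' monocytes. Here and for the Fc receptor and complement lists below, the shares over all genes at 10 CPM were 2.75% higher and 4.75% lower. The 14 measured genes of zymosan recognition had a median log2 ratio of 0.33, with the receptor adaptor Myd88 at 57.7 and 84.6 CPM in NRS and aCXCR2 and the fungal lectin receptor Clec4e at 353 and 678. The 6 colony-stimulating factor receptor genes had a median of 0.56, with Csf2rb at 239 and 392 CPM. The 6 NADPH oxidase genes had a median of 0.14, with Cybb at 1156 and 1637 CPM. Glycolysis and hypoxia genes (18, median 0.30) included Hif1a at 512 and 742 CPM and Slc16a3, the lactate exporter, at 247 and 401. The 15 respiratory chain genes had a median of 0.064 and the 8 heat shock genes 0.029.

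Of 5 Fc receptor genes, Fcgr4 was higher, at 192 and 390 CPM. Of 11 complement genes, Cfb was higher, at 47.3 and 119 CPM, and Itgax lower, at 14.2 and 5.10. Cfp, properdin, stood at 583 and 861 CPM.

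At least 2 UMIs of Mki67 and Top2a, genes of dividing cells, were found in 4 of 48 NRS members (8.33%) and 126 of 680 aCXCR2 members (18.5%). Thinned to 2000 UMIs, Mki67 was seen in 4.17 and 4.41% of members, against 0.415 and 0% of rods.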
